A study of Mus musculus with 8 samples.

Results

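Enzymes of phase II drug metabolism were described in whole liver of mice with diet-induced steatohepatitis treated with an antibody against CD47. These are the glutathione S-transferases (Gst), the UDP-glucuronosyltransferases (Ugt) and the cytosolic sulfotransferases (Sult). Members were all genes in the authors' comparison table whose symbol begins with Gsta, Gstm, Gstp, Gstt, Gstk, Gsto, Gstz, Ugt1, Ugt2, Ugt3 or Sult, which gave 46 of its 14432 genes: 20 Gst, 17 Ugt and 9 Sult genes. Male C57BL/6J mice (C57BL/6 in the sample labels) had eaten a fructose, palmitate and cholesterol diet for 16 weeks, and the antibodies were injected into the peritoneum between weeks 8 and 16. Libraries of polyadenylated RNA came from livers of mice given anti-CD47 (200 µg per mouse, 4 libraries, antiCD47 1 to 4) or IgG (4 libraries, IgG 1 to 4). The diet was common to both treatments, no untreated or chow-fed liver is part of the comparison, and the ages of the mice are not given in the sources used here. Groups of 7 to 8 mice were described, and nothing ties a library to an animal.

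Phase II enzymes make reactive or fat-soluble molecules easier to excrete by joining them to a polar group. Glutathione S-transferases join electrophiles to glutathione, UDP-glucuronosyltransferases of the endoplasmic reticulum add a sugar, usually glucuronic acid, to bilirubin, steroids, bile acids and drugs, and sulfotransferases transfer sulfate from the donor PAPS to phenols, steroids and bile acids. Hepatocytes carry most of these enzymes in the liver, and their genes are known targets of the xenobiotic sensors CAR, PXR and AhR and of NRF2.

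Promoters of 4 members are shown, those of the genes that differed between treatments in the results below. The sequences are RefSeq windows of build GRCm38.p6, 5′ to 3′ on the gene's strand, from 250 bases before the start site to 50 after it. Capitals mark matches on either strand to the antioxidant response element core TGACNNNGC or the xenobiotic response element core GCGTG.
Gsta3 promoter, chr1:21240335-21240634 (plus strand): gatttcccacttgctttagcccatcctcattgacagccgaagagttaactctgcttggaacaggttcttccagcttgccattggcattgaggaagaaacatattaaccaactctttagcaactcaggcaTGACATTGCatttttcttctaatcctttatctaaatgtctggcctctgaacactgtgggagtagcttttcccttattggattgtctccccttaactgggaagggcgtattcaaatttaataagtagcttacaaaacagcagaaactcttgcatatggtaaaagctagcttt
Sult1a1 promoter, chr7:126676369-126676668 (minus strand): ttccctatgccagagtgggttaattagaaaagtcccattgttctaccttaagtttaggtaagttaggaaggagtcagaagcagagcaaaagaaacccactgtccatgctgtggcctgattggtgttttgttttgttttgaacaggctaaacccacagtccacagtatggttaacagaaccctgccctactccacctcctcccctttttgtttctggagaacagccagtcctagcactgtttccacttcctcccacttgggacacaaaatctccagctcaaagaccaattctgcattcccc
Gstm5 promoter, chr3:107895604-107895903 (plus strand): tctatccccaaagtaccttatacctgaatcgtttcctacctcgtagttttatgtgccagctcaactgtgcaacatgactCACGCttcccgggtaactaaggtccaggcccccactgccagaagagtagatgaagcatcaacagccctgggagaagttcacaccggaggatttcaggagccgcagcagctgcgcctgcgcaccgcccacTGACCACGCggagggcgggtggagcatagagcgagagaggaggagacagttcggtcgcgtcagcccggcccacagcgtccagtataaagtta
Gstp3 promoter, chr19:4059398-4059697 (minus strand): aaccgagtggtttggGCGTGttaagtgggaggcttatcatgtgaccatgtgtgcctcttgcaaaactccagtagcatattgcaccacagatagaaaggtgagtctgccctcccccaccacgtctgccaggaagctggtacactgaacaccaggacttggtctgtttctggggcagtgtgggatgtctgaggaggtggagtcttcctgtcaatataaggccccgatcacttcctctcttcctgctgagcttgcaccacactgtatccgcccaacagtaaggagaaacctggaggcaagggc

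The antioxidant response element core was found in the windows of Gsta3 and Gstm5, 2 of the 40 members with a window (5%), against 12.5% of all 27025 genes with one. The xenobiotic response element core was found in 8 members (20%), among them Gstm5 and Gstp3, against 32.5% of all genes. In Gstm5 1 of its 2 xenobiotic matches lies inside the antioxidant match, so the run of capitals there marks both. The Sult1a1 window held neither. A match is a stretch of letters and not a measured binding site.

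All 46 members passed the filter on low counts, over libraries of 43691472 to 55477484 counts. Hepatocyte markers were abundant, with a summed level of 85185 to 103971 CPM (counts scaled to a common library size, here with TMM factors) in antiCD47 livers and 77373 to 83949 CPM in IgG livers. Of these 12 markers 1 rose, none fell and 11 did not pass. Of 12 cholangiocyte markers 10 fell and none rose, with summed levels of 122 to 369 CPM in antiCD47 and 450 to 620 CPM in IgG. Of 16 acute phase genes 14 rose, with sums of 24500 to 45410 CPM in antiCD47 and 11108 to 20847 CPM in IgG. Of 12 Kupffer cell and macrophage markers 6 rose and none fell, with sums of 726 to 1046 CPM in antiCD47 and 433 to 752 CPM in IgG. All 7 tested of 12 neutrophil markers rose, with sums of 15.1 to 33.5 CPM in antiCD47 and 6.34 to 9.17 CPM in IgG. In whole tissue, fewer cells of a type and less RNA per cell cannot be told apart. Cd47 itself was at 80.3 ± 7.34 CPM in antiCD47 and 72.8 ± 4.17 CPM in IgG (SD, n = 4 each; edgeR adjusted p = 0.24), which is no check of the labels, since an antibody does not target the transcript. Separate animals are not stated, so p-values measure the spread between these libraries.

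Among the 46 conjugation genes, 2 rose (Gsta3 and Sult1a1) and 2 fell (Gstm5 and Gstp3) in antiCD47 livers when p was adjusted by Benjamini-Hochberg over 15472 genes and held against 0.05 (two-sided quasi-likelihood test of edgeR). These 4 are 8.7% of the members, while 10.8% of all tested genes were called, 5.44% higher and 5.4% lower. In this test the members were thus not called more often than genes at large. The comparison depended on the method. The member share was larger by DESeq2 (28.3% against 20.5% of all genes) and limma voom (15.2% against 11.3%). It was smaller with scaling by library totals (13% against 23.1%). Changes were small: 1 member, Sult1e1, reached a 2-fold difference in either direction, and it did not pass; 3.24% of all tested genes both passed and reached 2-fold, and 0 members did. The log2 fold change, antiCD47 over IgG, had a median of 0.13 over the members, against -0.01 over all tested genes. It was above 0 in 36 members (78.3%), against 49% of all genes. An upward shift was not particular to the members: the median was 0.13 over 12 hepatocyte markers and 0.25 over 12 pericentral hepatocyte markers. Over 10 periportal hepatocyte markers it was -0.14. In the authors' deposited table, adjusted p was under 0.05 for 10 members, 7 with a positive and 3 with a negative sign, where 18.4% of all its genes passed.

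The count of called members depended on single libraries, as did that of all genes. Without antiCD47 1 it was 7 members (23.1% of all tested genes called), without antiCD47 2 it was 2 (4.81%), without antiCD47 3 it was 0 (0.134%), and without antiCD47 4 it was 2 (10.5%). Leaving out IgG 1 gave 1 member (1.11%), IgG 2 gave 8 (10.2%), and neither IgG 3 (0.587%) nor IgG 4 (0.0128%) left any. With scaling by library totals alone, 0 members were higher and 6 lower (13%), where 23.1% of all tested genes were called. The member median was then -0.06 and the median of all genes -0.19. Under that scaling 17 of the 46 members were above 0, and 19 members changed sign, none of them among the 4 that passed with TMM. Relative to the median gene the members stood 0.14 higher under that scaling and 0.13 higher under TMM.

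**Figure D1:**
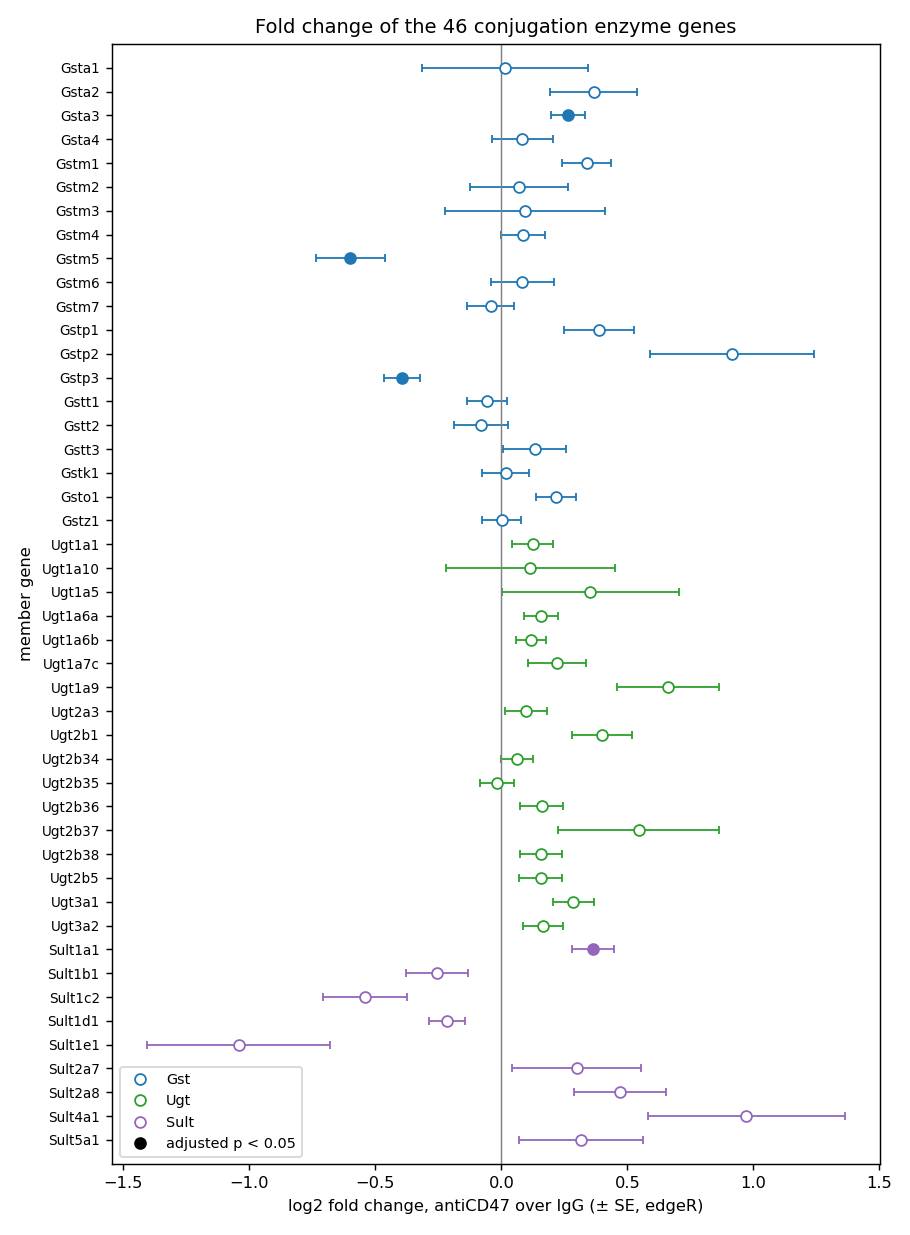
Log2 fold change of each member, antiCD47 over IgG, with its standard error (edgeR, 4 libraries per treatment), ordered by family, with Gst genes in blue, Ugt genes in green and Sult genes in purple. Filled points are the 4 members with an adjusted p under 0.05; 36 of 46 points lie above 0 with TMM scaling, and scaling by library totals moved the median to -0.06.

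The alpha class was led by Gsta3, an enzyme known in the mouse for conjugating the epoxide of aflatoxin. It had 1327, 1360, 1385 and 1327 CPM in antiCD47 1 to 4, against 1127, 1190, 1108 and 1071 CPM in IgG 1 to 4. Every antiCD47 library lay above every IgG library, and the means were 1350 ± 28.1 and 1124 ± 49.7 CPM (SD, n = 4 each). The log2 fold change was 0.26 ± 0.07 (SE; edgeR adjusted p = 0.0388), a 1.2-fold difference. The call was lost without antiCD47 2, 3 or 4 or IgG 1, 3 or 4, at a log2 fold change of 0.24 to 0.29 over all libraries left out in turn, and with library totals the value was 0.08 (edgeR adjusted p = 0.357; 6.38e-05 to 0.357 over all alternatives). Its transcripts shared 0.229% of their 31-base stretches with other family genes in the reference transcripts, so few of its reads could belong to a relative.

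The other alpha genes were far lower per length and did not pass. Gsta2 was at 36.5, 42.5, 39.6 and 51 CPM in antiCD47, against 28.3, 46, 30.7 and 26.6 CPM in IgG, and IgG 2 overlapped the antiCD47 range (log2 0.37 ± 0.17 SE, edgeR adjusted p = 0.175). Gsta1 was at 46.8, 16.4, 41.6 and 43 CPM in antiCD47 and 31.8, 55.2, 35.7 and 23.6 CPM in IgG. Here antiCD47 2 was the lowest of all libraries and IgG 2 the highest. Gsta1 shares 56.6% of its 31-base stretches with Gsta2, so the split of reads between them is uncertain; their sum was 79.3 ± 14.7 CPM in antiCD47 and 69.4 ± 22.2 CPM in IgG. Gsta4, which conjugates the lipid peroxidation product 4-hydroxynonenal, had 68.4 ± 9.88 CPM in antiCD47 and 64.6 ± 8.13 CPM in IgG.

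Gstm1, a mu class enzyme, was the member with the highest level per length, at 2008 CPM per kilobase of transcript in antiCD47 and 1589 in IgG. Its levels were 2616, 2551, 2732 and 2456 CPM in antiCD47 and 2223, 2267, 1933 and 1767 CPM in IgG. The treatments did not overlap, yet the log2 difference of 0.34 ± 0.10 (SE; edgeR adjusted p = 0.0521) missed the threshold by little. In the authors' deposited table its adjusted p was 0.0091, and by DESeq2 here it was 0.00481 (0.00481 to 0.159 over all alternatives). Together Gstm1, Gstp1 and Gsta3 made up 52.9 to 56.1% of the summed CPM per kilobase of all members in antiCD47 livers and 49.3 to 51.7% in IgG livers.

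Gstm5, another mu class gene, fell. Its levels were 8.3, 5.18, 6.2 and 7.62 CPM in antiCD47, against 10.3, 10.1, 10.7 and 10.2 CPM in IgG. The IgG libraries lay within a narrow band and all antiCD47 libraries lay below it, at a log2 difference of -0.60 ± 0.14 (SE; edgeR adjusted p = 0.0302). It lay between -0.71 and -0.49 when libraries were left out singly, and the call was lost without antiCD47 3 or IgG 1, 3 or 4. None of its 31-base stretches occur in another family gene. Between treatments its levels went in the same direction as the sums of the cholangiocyte markers given above and of the stellate cell and fibroblast markers. Of the latter 4 of 12 fell and 1 rose, with sums of 603 to 815 CPM in antiCD47 and 896 to 1272 CPM in IgG. No defining marker of either list was at 0, and their part in the result was not tested.

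The mu class genes Gstm2, Gstm3, Gstm4, Gstm6 and Gstm7 had log2 fold changes between -0.04 and 0.09 and none passed (smallest edgeR adjusted p = 0.531, for Gstm4). Gstm3 was at 247, 74.3, 228 and 263 CPM in antiCD47 and 207, 211, 164 and 179 CPM in IgG. In antiCD47 2 it lay below every other library, and the remaining antiCD47 libraries lay above every IgG library. Without antiCD47 2 its log2 fold change was 0.37 (edgeR adjusted p = 0.0639), against 0.09 ± 0.32 (SE) with all libraries. Gstm2 had the same arrangement except that antiCD47 4 lay within the IgG range, at 105, 49.8, 96.5 and 87.8 CPM in antiCD47 and 86.4, 89.2, 73.3 and 74.1 CPM in IgG.

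In the pi class, Gstp3 fell and its more abundant relatives did not pass. Gstp3 had 12.5, 12.2, 11.1 and 11.5 CPM in antiCD47, against 15.5, 16.2, 15.9 and 14.7 CPM in IgG, with no overlap. The log2 fold change was -0.39 ± 0.07 (SE; edgeR adjusted p = 0.0195), the smallest adjusted p of the members. It stayed between -0.42 and -0.37 when libraries were left out singly, and the call was lost without antiCD47 3 or IgG 1, 3 or 4. Only 0.534% of its 31-base stretches are shared with Gstp1. Between treatments the sum of the cholangiocyte markers given above was lower in antiCD47 too. The part of these markers was not tested.

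Gstp1, the main pi class enzyme, was at 855, 1126, 784 and 882 CPM in antiCD47 and 833, 711, 667 and 577 CPM in IgG. IgG 1 lay within the antiCD47 range and antiCD47 2 above all others, and the log2 fold change was 0.39 ± 0.14 (SE; edgeR adjusted p = 0.09; 0.27 without antiCD47 2). Gstp2 was near 8.07, 13.6, 4.22 and 11.1 CPM in antiCD47 and 4, 5.64, 6.39 and 3.63 CPM in IgG, but it shares 54.8% of its 31-base stretches with Gstp1 and a small part of the reads of Gstp1 could make up its count. The sum of both was 921 ± 152 CPM in antiCD47 and 702 ± 107 CPM in IgG, with overlap.

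The remaining Gst classes differed little. Gstz1, the maleylacetoacetate isomerase of tyrosine breakdown, was at 546 ± 39.9 CPM in antiCD47 and 546 ± 34.5 CPM in IgG (log2 0.00 ± 0.08 SE, edgeR adjusted p = 0.998), and under library totals at -0.19. Gstt1, the leading theta class gene, was at 199 ± 21.4 CPM in antiCD47 and 207 ± 4.72 CPM in IgG, and the theta genes Gstt2 and Gstt3 had log2 fold changes of -0.08 and 0.13. Gstk1, an enzyme of mitochondria and peroxisomes, was at 70.4 ± 8.17 CPM in antiCD47 and 69.5 ± 5.41 CPM in IgG. Gsto1, of the omega class, which reduces dehydroascorbate, was at 58.1, 66.2, 68.1 and 60 CPM in antiCD47 and 56.9, 58.3, 53.3 and 48.7 CPM in IgG. Its ranges overlapped through antiCD47 1 and IgG 2 (log2 0.22 ± 0.08 SE, edgeR adjusted p = 0.0984).

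**Figure D2:**
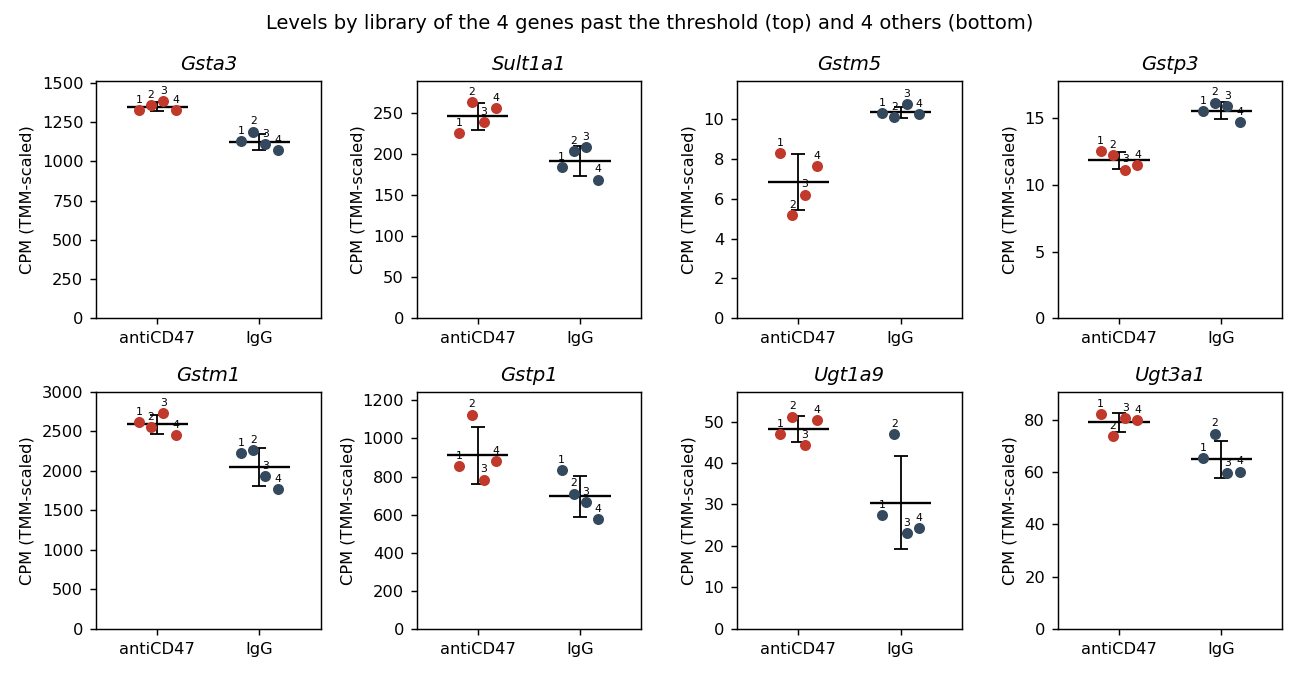
Level of 8 members in each library, as CPM on TMM-scaled library size, antiCD47 on the left and IgG on the right of each panel; lines and bars are the mean ± SD of 4 libraries and small digits are library numbers. The top row holds the 4 members past the threshold, whose treatments do not overlap; in the bottom row the treatments overlap for Gstp1, Ugt1a9 and Ugt3a1 and do not for Gstm1.

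None of the 17 glucuronosyltransferase genes passed by the edgeR test, although 16 had a log2 fold change above 0, with a median of 0.16 and a range of -0.02 to 0.66. At an unadjusted p of 0.05 there were 4 (23.5%, against 32.5% of all tested genes). After adjustment DESeq2 called 3 and limma voom 2, where they called 20.5% and 11.3% of all tested genes. With library totals 6 of the 17 were above 0 and the median was -0.03. The 7 Ugt1a genes come from 1 locus in which separate first exons join shared later exons. Between 53% and 84.2% of each one's 31-base stretches occur in another family gene, so their division of reads is uncertain. Their sum was 1127, 1146, 1153 and 1088 CPM in antiCD47 and 1048, 1077, 965 and 944 CPM in IgG. The treatments did not overlap in that sum with TMM, at a ratio of 1.12, but they did with library totals, at a ratio of 0.984.

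Ugt1a1, which conjugates bilirubin, had the highest level per length of the locus and was at 600, 695, 654 and 609 CPM in antiCD47 and 597, 645, 560 and 545 CPM in IgG (log2 0.12 ± 0.08 SE, edgeR adjusted p = 0.318). Its ranges overlapped, and with library totals the value was -0.06. Ugt1a9 was at 46.9, 51.2, 44.3 and 50.3 CPM in antiCD47 and 27.4, 47, 23.2 and 24.3 CPM in IgG. IgG 2 alone reached the antiCD47 range, and the log2 difference of 0.66 ± 0.20 (SE; edgeR adjusted p = 0.0624) became 0.95 without IgG 2 (edgeR adjusted p = 0.00724; 0.00724 to 0.151 over all alternatives). Ugt1a6a, one of the pair of genes for a phenol-conjugating enzyme, was at 169, 174, 172 and 175 CPM in antiCD47, above the 168, 163, 144 and 144 CPM of IgG, at a log2 difference of 0.16 ± 0.07 (SE; edgeR adjusted p = 0.144) that was -0.03 with library totals. Ugt1a5 spread widely within the treatments, at 110, 30, 101 and 65.1 CPM in antiCD47 and 73.6, 39.6, 67.3 and 59.1 CPM in IgG. Both libraries numbered 2 were the lowest of their treatment for that gene.

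The Ugt2 family, whose enzymes handle steroids and bile acids, summed to 2684, 2756, 2477 and 2588 CPM in antiCD47 and 2536, 2420, 2246 and 2265 CPM in IgG. These sums overlapped, since IgG 1 lay above antiCD47 3. Ugt2b5 led by level per length, at 780 ± 54.9 CPM in antiCD47 and 700 ± 60.1 CPM in IgG (log2 0.16 ± 0.09 SE, edgeR adjusted p = 0.237; -0.03 with library totals), and it shares 55.8% of its 31-base stretches with relatives, mostly Ugt2b38. Ugt2b1 came closest to the threshold, at 354, 370, 300 and 326 CPM in antiCD47 and 316, 221, 230 and 257 CPM in IgG. Only IgG 1 overlapped the antiCD47 range, at a log2 difference of 0.40 ± 0.12 (SE; edgeR adjusted p = 0.0582) that was 0.52 without IgG 1 (edgeR adjusted p = 0.0498; 0.0131 to 0.182 over all alternatives). Ugt2b35 was the member of the superfamily below 0, at -0.02.

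The Ugt3 genes, whose human relatives use other sugars than glucuronic acid, were somewhat higher. Ugt3a1 was at 82.2, 73.8, 80.7 and 79.9 CPM in antiCD47 and 65.4, 74.8, 59.5 and 60.2 CPM in IgG. IgG 2 lay just above antiCD47 2, and the log2 fold change was 0.28 ± 0.08 (SE; edgeR adjusted p = 0.053; 0.0232 without IgG 2, and 0.0104 to 0.354 over all alternatives). Ugt3a2 was at 330 ± 18.3 CPM in antiCD47 and 295 ± 26 CPM in IgG (edgeR adjusted p = 0.183), and its log2 fold change was 0.16 with TMM and -0.02 with library totals.

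Sult1a1, the phenol sulfotransferase, rose: it had 225, 262, 239 and 256 CPM in antiCD47, against 184, 204, 208 and 169 CPM in IgG. The treatments did not overlap, and the log2 fold change was 0.36 ± 0.08 (SE; edgeR adjusted p = 0.0312), a 1.29-fold difference. It was 0.18 with library totals (edgeR adjusted p = 0.143; 0.0014 to 0.143 over all alternatives), and the call was lost without antiCD47 2, 3 or 4 or IgG 1, 3 or 4, at 0.31 to 0.41 over the libraries left out in turn.

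The other Sult1 genes lay below 0 and did not pass. Sult1d1, which sulfates catecholamines in the mouse, was at 85.8, 101, 89.2 and 95.8 CPM in antiCD47 and 107, 101, 116 and 109 CPM in IgG (log2 -0.22 ± 0.07 SE, edgeR adjusted p = 0.0756), with antiCD47 2 level with IgG 2. Sult1c2 was at 4.4 ± 0.655 CPM in antiCD47 and 6.4 ± 1.34 CPM in IgG (log2 -0.54 ± 0.17 SE, edgeR adjusted p = 0.0632). Sult1b1, which sulfates thyroid hormone, was at 17.1 ± 3.08 CPM in antiCD47 and 20.4 ± 1.56 CPM in IgG. With library totals Sult1b1, Sult1c2, Sult1d1 and Sult1e1 were all called lower, where 23.1% of all tested genes were called. Sult1e1, the estrogen sulfotransferase, had low levels of 0.275, 0.141, 0.143 and 0.185 CPM in antiCD47 and 0.315, 0.6, 0.354 and 0.277 CPM in IgG, and its treatments did not overlap (log2 -1.04 ± 0.36 SE, edgeR adjusted p = 0.0859).

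Sult2a8, a bile acid sulfotransferase of mouse liver, was the most abundant Sult2 gene at 317, 451, 251 and 312 CPM in antiCD47 and 309, 219, 215 and 218 CPM in IgG. IgG 1 stood with the antiCD47 libraries, antiCD47 2 above all, and the log2 fold change was 0.47 ± 0.18 (SE; edgeR adjusted p = 0.11; 0.29 without antiCD47 2). Sult2a7, Sult4a1 and Sult5a1 were low and did not pass. Their means were 0.624, 0.449 and 1.18 CPM in antiCD47 and 0.509, 0.226 and 0.943 CPM in IgG, in that order of genes. A further 26 genes with family symbols in the reference annotation are not in the authors' table and are no members. Of these, 13 had no count in any library and 12 had at most 15 counts in a library. Sult2b1 had 9, 2, 4 and 4 counts in antiCD47 and 14, 11, 13 and 27 counts in IgG (edgeR adjusted p = 0.053).

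In all, the treatments did not overlap in 7 members (15.2%): 4 higher (Gsta3, Gstm1, Sult1a1 and Ugt1a6a) and 3 lower (Gstm5, Gstp3 and Sult1e1). Of all tested genes 19.6% did not overlap, 9.51% higher and 10.1% lower, so this share was no larger among the members. The summed level of all members was 11400, 11490, 11215 and 11015 CPM in antiCD47 and 10346, 10279, 9321 and 8878 CPM in IgG, without overlap at a ratio of 1.16. With library totals it was 10888, 10285, 10228 and 10885 CPM in antiCD47 and 10608, 10653, 10230 and 9848 CPM in IgG, which overlapped at a ratio of 1.02. The TMM factors moved with treatment, at 0.895 to 0.989 in antiCD47 and 1.03 to 1.11 in IgG, and the acute phase genes took more of the counts in antiCD47; their part in the scaling was not tested.

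**Figure D3:**
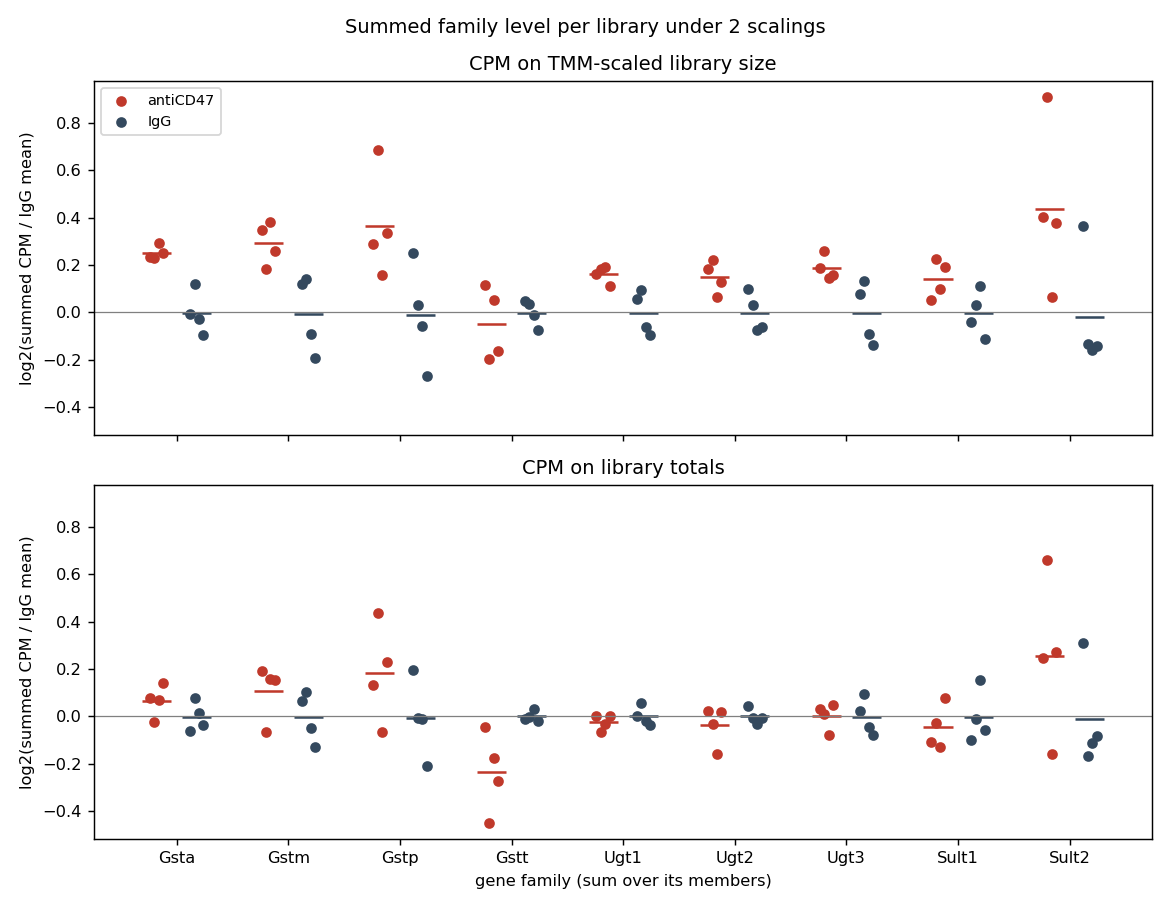
Summed level of each family with at least 2 members, per library, as log2 of the ratio to the IgG mean, with CPM on TMM-scaled library size above and CPM on library totals below; points are libraries, antiCD47 left of IgG, and lines are means. With TMM the antiCD47 points of Gsta, Gstm, Ugt1 and Ugt3 lie above all IgG points, and with library totals those families overlap while Gstt lies below. The Gsta sum is mostly Gsta3 (1350 of 1497 CPM in antiCD47) and the Gstm sum mostly Gstm1 (2589 of 3038 CPM).

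Members also differed in how they varied among the antiCD47 livers. The library antiCD47 2 was the lowest of the 8 in 15 members and the highest in 12. For antiCD47 1 these counts were 1 and 11. Such counts were not made over all genes. Over genes at large antiCD47 2 differed most from the others of its treatment, at a chi-square over its degrees of freedom of 99.6 to 154. The other antiCD47 pairs were at 45.6 to 70.2. Divergence of antiCD47 2 was therefore not particular to the members. Relative to the mean of the other antiCD47 libraries its level was 0.302 times in Gstm3, 0.326 times in Ugt1a5, 0.373 times in Gsta1, 0.457 times in Ugt1a10 and 0.517 times in Gstm2. For each of these 5 genes it lay below every IgG library as well. However, Gsta1, Ugt1a5 and Ugt1a10 share 56.6%, 65.1% and 64.8% of their 31-base stretches with other family genes, so their reads are divided uncertainly. Summed with Gsta2, Gsta1 was at 58.9 CPM in antiCD47 2, within the IgG range of 50.2 to 101 CPM. In the other direction the level in antiCD47 2 was 1.75 times that mean in Gstp2, 1.54 times in Sult2a8, 1.52 times in Sult4a1 and 1.34 times in Gstp1. The same library had the highest acute phase sum (45410 CPM) and the lowest cholangiocyte sum (122 CPM). Its sums of hepatocyte markers (103971 CPM), of CAR and PXR reporter genes (8842 CPM) and of AhR reporter genes (307 CPM) were also the highest. Its sum of 11 male-biased liver genes was the lowest (8058 CPM, against 10229 to 15757 CPM in IgG). That of 12 female-biased liver genes was 777 CPM, within the IgG range of 377 to 792 CPM. The part of these lists was not tested. The male-biased list holds the members Ugt2b1 and Ugt2b38, which went against its sum: both were highest of the 8 libraries in antiCD47 2, at 369.7 and 48.8 CPM. The Kupffer cell and neutrophil marker sums of that library, at 1046 and 33.5 CPM, were the highest too. IgG 4 was the lowest library in 16 members and the highest in 0.

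**Figure D4:**
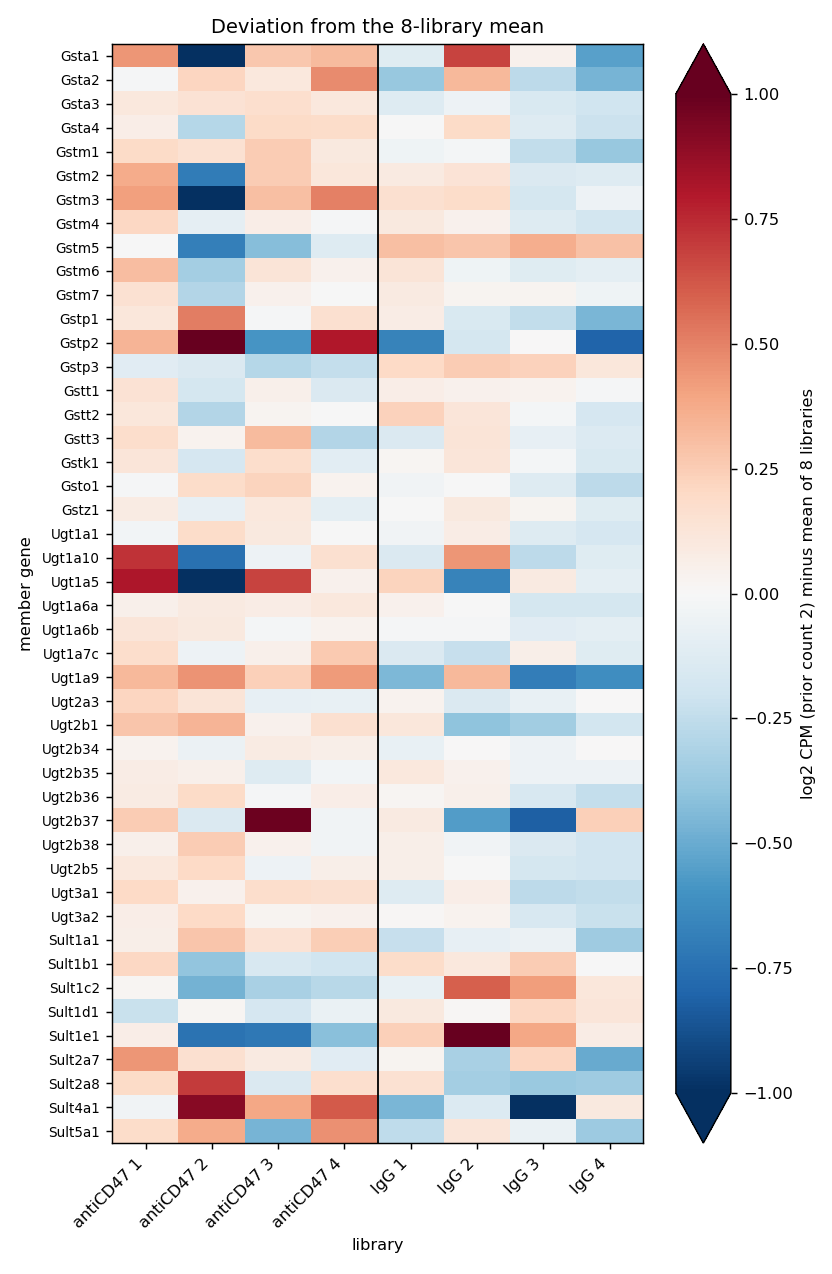
Each member's log2 CPM (prior count 2) minus its mean over the 8 libraries, antiCD47 libraries left of the line and IgG right, red above and blue below the mean. The column of antiCD47 2 is bluest in Gsta1, Gstm2, Gstm3, Gstm5, Ugt1a5, Ugt1a10 and Sult1e1. It is reddest in Gstp1, Gstp2, Sult2a8 and Sult4a1, while Gsta3 and Gstp3 are even within each treatment.

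Partner genes of these enzymes were read from lists of supply, other conjugation, export, sensor and regulator, and reporter genes. Of these 111 tested genes 10 rose and 3 fell (11.7%, against 10.8% of all tested genes). Among 18 genes of glutathione supply and recycling, Ggt6, of the gamma-glutamyltransferase family, rose to 19.2 ± 1.33 CPM in antiCD47, against 14.4 ± 1.89 CPM in IgG (log2 0.42, edgeR adjusted p = 0.0327). The dipeptidase gene Dpep1 fell to 1.29 ± 0.237 CPM, against 2.17 ± 0.442 CPM in IgG (log2 -0.75, edgeR adjusted p = 0.0496). The rate-limiting genes of glutathione synthesis, Gclc (0.01) and Gclm (0.04), had log2 fold changes near 0 and did not pass. Among 12 genes around UDP-glucuronic acid, Slc35d1, which carries it into the endoplasmic reticulum, rose to 122.9 ± 10.1 CPM in antiCD47, against 89.5 ± 13.5 CPM in IgG (log2 0.46, edgeR adjusted p = 0.0317). Its synthesis gene Ugdh was at 0.05 and did not pass. Of 13 genes around the sulfate donor none passed by edgeR; 5 had an unadjusted p under 0.05, DESeq2 called 1 and limma voom 0. Of 8 export pumps none passed by edgeR either, with 3 at an unadjusted p under 0.05, 3 by DESeq2 and 1 by limma voom. Over all tested genes these shares were 32.5% at an unadjusted p under 0.05, 20.5% by DESeq2 and 11.3% by limma voom.

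Among 17 other conjugation genes 2 rose and 1 fell. Nnmt, which methylates nicotinamide, had 22.9, 47.3, 48.1 and 21.1 CPM in antiCD47, against 6.14, 18.2, 3.43 and 4.27 CPM in IgG (log2 2.12 ± 0.52 SE, edgeR adjusted p = 0.036), with no overlap. Ugt8a, which makes galactosylceramide and stands outside the Ugt families above, fell to 0.748, 0.282, 0.389 and 0.371 CPM in antiCD47, against 1.58, 1.49, 1.12 and 2.14 CPM in IgG (log2 -1.81 ± 0.33 SE, edgeR adjusted p = 0.0195). The other gene that rose was Baat (log2 0.32), the bile acid conjugating enzyme. Without antiCD47 3, IgG 1, IgG 3 or IgG 4 none of the 13 partner genes was called by edgeR, where few genes were called at all. With library totals the calls of Ggt6 (log2 0.23), Slc35d1 (0.27) and Baat (0.13) were lost.

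The xenobiotic sensors themselves did not pass: Nr1i2 (PXR) had a log2 fold change of -0.22, Nr1i3 (CAR) of -0.12, Ahr of 0.23, Nfe2l2 (NRF2) of -0.03 and its inhibitor Keap1 of 0.20 (edgeR adjusted p = 0.198 to 0.838). Among the other regulators the hepatocyte factor Hnf4a rose (0.58; edgeR adjusted p = 0.0382) and the small Maf factor Maff fell (-0.52; edgeR adjusted p = 0.0471). Of the reporter genes of CAR and PXR 2 of 10 rose, Cyp2c29 (1.67) and Cyp3a13 (0.58). The other 8 did not pass, among them Cyp2b10 (-0.24) and Cyp3a11 (0.17), and the median of the list was 0.26. Of those of NRF2 2 of 15 rose, Txnrd1 (0.65) and Hmox1 (1.64). The other 13 did not pass, among them Nqo1 (-0.28), and the median of the list was 0.01. None of 5 AhR reporter genes passed by edgeR, with 2 at an unadjusted p under 0.05 and 0 by DESeq2 or limma voom.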

How the data were processed

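Liver libraries were made with Illumina TruSeq chemistry, per the labels' protocols. The deposited count table lists 54309 Ensembl genes with estimated counts that are not normalized and are all whole. Salmon 1.3.0, DESeq2 1.32.0 and build GRCm39 are named in the submitters' processing notes, with no role given. The authors' comparison table holds, per the file headers, a mean normalized signal, a log2 fold change with its error, p-values and a rank score; only its symbols, signs and adjusted p-values were used. Its reference treatment is not stated; 94.4% of genes had the sign found here, antiCD47 over IgG.

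Genes were filtered with filterByExpr, scaled by TMM and tested in edgeR 4.0.16 (R 4.3.3) by the quasi-likelihood test; SE is the log2 fold change divided by the root of its F statistic. Family sums carry no test. CPM per kilobase uses the longest protein-coding transcript of GENCODE M21 (GRCm38), which also gave the shared 31-base stretches. Of the 46 members 40 had a promoter window, and the first listed was read. Between any pair of libraries of 1 treatment, chi-square over its degrees of freedom was at least 24.2, so none was a duplicate. No column of sample values was left unused (0). Tests were checked on simulated counts.

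The members and lists were chosen with earlier results of these data known. Named were members past the threshold or without overlap, the most abundant and smallest-p member of each family, the 4 nearest misses, partner genes past the threshold and 6 fixed genes; further values were chosen after seeing them, among them those of Gstm2, Gstm3, Gsta1, Ugt1a5, Gclc, Gclm, Ugdh and Sult2b1. Alternatives used DESeq2 1.42.0 and limma 3.58.1. Some results, among them those of 1 further promoter motif searched, are not reported here.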

Additional observations from a re-analysis of the deposited data

Results flagged for a closer look

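Of 118 groups of 4 libraries checked, 3 held a library whose gap to its nearest neighbour passed Dixon's 95% critical value; chance gives about 1 in 20. Sult2a8 was at 309 CPM in IgG 1, above the 215 to 219 CPM of the other IgG libraries. The summed Sult2 level, which is almost all Sult2a8, was at 310 CPM in IgG 1, against 215 to 220 CPM in the others. Ugt1a10 was at 0.964 CPM in IgG 2, above the 0.577 to 0.64 CPM of the other IgG libraries, and it shares 64.8% of its 31-base stretches with other family genes.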

How the results depend on the processing

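The edgeR test called 2 members higher and 2 lower. In brackets are the shares of members and of all tested genes called in either direction, 8.7% and 10.8% in that test. Members higher numbered 4 with DESeq2 size factors (13% and 11.2%) and 0 with library totals (13% and 23.1%). They numbered 1 with upper quartile scaling (8.7% and 10.4%) and 9 by DESeq2 (28.3% and 20.5%). There were 5 by limma voom (15.2% and 11.3%) and 6 by limma voom with quality weights (26.1% and 28%). An adjusted p of 0.1 gave 9 (30.4% and 23.1%). Without IgG 2 and antiCD47 2 together, an alternative chosen after seeing the data, members higher numbered 4 (15.2% and 7.03%). Members lower numbered 6 with library totals, 4 by DESeq2, 6 with quality weights and 5 at an adjusted p of 0.1. Leaving out each library in turn gave 0 to 6 higher and 0 to 5 lower. The cause was not tested.

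With library totals the member median was -0.0576, and the log2 fold change reversed in 19 of 46 members, among them Gsta1 (-0.15), Gsta4 (-0.0949), Gstm2 (-0.11), Gstm3 (-0.0728), Gstm4 (-0.0977), Gstm6 (-0.0962), Ugt1a6a (-0.0261), Gstt3 (-0.0582), Gstz1 (-0.19), Ugt2b5 (-0.0285), Gstk1 (-0.17), Ugt3a2 (-0.0196), and Ugt1a1 (-0.063). Cd47 was at -0.0494. With upper quartile scaling 4 reversed: Gstz1 (-0.0614), Gstk1 (-0.0426), Gsta1 (-0.0345) and Ugt2b34 (-0.00185). By voom 3 reversed (Gsta1, Gstm3 and Gstz1), and with the replicate block 2 (Gstm3 and Gstz1). None of the members that passed reversed under any alternative. Gstz1, at 0.00 in the edgeR test, was -0.0025 without the low count filter, -0.00088 by voom and -0.00037 with the replicate block. With libraries left out in turn Gstz1 ranged from -0.0371 to 0.0377, Gstk1 from -0.0392 to 0.0746 and Nfe2l2 from -0.126 to 0.0227, and Nr1i3 was 0.0271 without both libraries numbered 2.

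With the replicate number as a block, 5 members were higher and 2 lower, where 15.7% of all genes were called. Deviations of same-numbered libraries correlated between -0.0232 and 0.157, and 1 of 8 libraries correlated best with its own number. With 4 libraries per treatment these correlations cannot decide whether same-numbered libraries share more than a number. Low counts limit the precision for Sult1e1, Sult2a7, Sult4a1, Ugt1a10 and Sult2b1.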
